A study of Mus musculus and Homo sapiens with 20 samples.

Results

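HMGA1, HMGA2, IGF2BP1, IGF2BP2, IGF2BP3 and LIN28B are growth genes of the embryo and of tumours, and their RNA was followed here in 3 cell lines treated with an inhibitor of the HSP90 chaperones. The 6 genes were chosen by symbol, ignoring case, from gene tables that held 63568 genes for K562 and 43626 genes for each of the mouse lines MEF and HPC-7, or 150820 gene rows in all. They were chosen with the response to the inhibitor in these same libraries in view. The values of HSP90i against Control are therefore given below as a description with no test, and nothing is supported with them.

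Treated cells (HSP90i) had received NVP-AUY922, a compound that occupies the ATP pocket of HSP90, for 16 h. The dose was 300 nM for K562 cells, 200 nM for MEF cells and 50 nM for HPC-7 cells, and so changed together with line and species. Untreated cells carry the label Control, and their count columns are named for the solvent DMSO. Each line had 3 HSP90i and 3 Control libraries of bulk RNA. K562 is a human leukaemia line with the BCR-ABL1 fusion of chronic myeloid leukaemia. MEF, fibroblasts cultured from mouse embryos, and HPC-7, blood precursors kept as a line, are both mouse cells. The labels give no strain, clone or passage, nor whether replicates came from separate cultures. The p-values then cover only the spread between these libraries, and that spread may be technical.

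HMGA1 and HMGA2 are small chromatin proteins that bind the minor groove of AT-rich DNA through AT-hooks and bend it for other factors. The IGF2BP proteins hold on to mRNAs through RRM and KH domains and affect their stability, transport and translation. LIN28B binds precursors of the let-7 microRNAs and keeps them from maturing, and let-7 in turn represses HMGA2, LIN28B and IGF2BP mRNAs. In most tissues these genes are high before birth and low in the adult, and many tumours express them again.

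The sequences that tie these genes to let-7, and those just upstream of their starts, are shown because the first define the microRNA family that links the members and the second lie before the starts of members, among them Hmga2 and Igf2bp2, which moved most and least in MEF. Capitals in the mature microRNAs mark the seed, bases 2 to 8. It is GAGGUAG in 10 of the 11 mature mouse let-7 family names in RefSeq (GRCm38.p6) and GAGGUAU in the remaining name, let-7j.
let-7a-5p: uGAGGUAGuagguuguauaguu
let-7b-5p: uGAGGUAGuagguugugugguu
let-7g-5p: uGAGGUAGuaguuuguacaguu
miR-98-5p: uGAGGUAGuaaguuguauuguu
In the let-7 hairpins below, capitals mark GGAG, the bases to which the zinc knuckles of LIN28 proteins bind. GGAG occurred in 9 of 11 let-7 hairpins (81.8%), against 447 of all 1005 mouse hairpins in the table (44.5%), and Mirlet7g has it while Mirlet7b does not.
Mirlet7g: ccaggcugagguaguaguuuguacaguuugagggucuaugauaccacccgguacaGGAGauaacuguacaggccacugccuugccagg
Mirlet7b: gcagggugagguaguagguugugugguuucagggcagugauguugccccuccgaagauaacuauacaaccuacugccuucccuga

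Promoter sequence was matched for 5 of the 6 mouse members in RefSeq (GRCm38.p6), and Igf2bp1 was the gene with no match. The 250 bases before each start were searched on both strands for the E-box CACGTG, the AP-1 site TGACTCA, the cyclic AMP response element TGACGTCA, the TEAD site CATTCC, the heat shock element core GAANNTTC, the GC box GGGCGG and the TATA box TATAAA. Of 32817 windows of this length, 6.02%, 4.46%, 1.55%, 12.6%, 6.69%, 32.7% and 12.4% held them, in that order. The Hmga2 window had 1 GC box, at base -133 from the gene start, in a tract made largely of C and T, and a GC content of 56.4%. The Hmga1 window printed here had 3 GC boxes and 72.8% GC. The table holds another Hmga1 start, whose overlapping window begins at base 27556354 and had 4 GC boxes and 73.2% GC, and the Igf2bp2 window 2 GC boxes and 77.2% GC. Capitals mark the GC box or its complement, and the adjoining matches in Hmga1 share no base.
Hmga2, chr10:120476470-120476719, minus strand: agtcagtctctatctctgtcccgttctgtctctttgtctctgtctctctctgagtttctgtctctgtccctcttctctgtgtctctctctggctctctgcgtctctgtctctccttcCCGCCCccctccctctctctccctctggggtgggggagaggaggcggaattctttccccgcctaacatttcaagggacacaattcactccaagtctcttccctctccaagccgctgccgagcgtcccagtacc
Hmga1, chr17:27556324-27556573, plus strand: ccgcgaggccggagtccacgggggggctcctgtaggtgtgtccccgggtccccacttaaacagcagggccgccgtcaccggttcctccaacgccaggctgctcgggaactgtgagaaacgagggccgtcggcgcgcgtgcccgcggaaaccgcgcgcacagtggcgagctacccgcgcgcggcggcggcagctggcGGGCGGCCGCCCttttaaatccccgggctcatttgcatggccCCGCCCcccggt
Igf2bp2, chr16:22163300-22163549, minus strand: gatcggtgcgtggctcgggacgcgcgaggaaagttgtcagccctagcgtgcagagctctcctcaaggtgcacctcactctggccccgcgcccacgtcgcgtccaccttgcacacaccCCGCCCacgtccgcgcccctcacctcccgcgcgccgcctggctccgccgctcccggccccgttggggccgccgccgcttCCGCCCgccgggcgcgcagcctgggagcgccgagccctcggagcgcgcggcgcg
Igf2bp3 and Lin28b held no GC box but 1 E-box each, at bases -23 and -49. Their windows precede a start that lies inside the annotated span of the gene. The 30 bases around each E-box, in capitals, are these.
Igf2bp3, chr6:49214960-49214989, minus strand: gctgggattcctCACGTGagacgttgattt
Lin28b, chr10:45470233-45470262, minus strand: aattgacagagtCACGTGtgctcaggggcc
None of the other motifs was found in the 5 members' windows. A match is a run of letters and no evidence of binding, and the lack of a match says nothing about a factor.

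In GRCm38.p6, Hmga2 spans chr10:120361268-120476469, Hmga1 chr17:27556574-27563672, Igf2bp1 chr11:95957163-96005944, Igf2bp2 chr16:22059009-22163299, Igf2bp3 chr6:49085218-49215469 and Lin28b chr10:45376617-45486314. For K562 no positions are printed, because the sources used here do not give the build of its counts.

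A K562 library held 7936066 to 10950573 counts, a MEF library 10542305 to 22872539 and an HPC-7 library 10131491 to 16859394. Levels are given as CPM, counts relative to the size of the library, after TMM scaling within a line, and folds are log2 of HSP90i over Control from edgeR with the standard error (SE). A gene is called at an adjusted p under 0.05 in edgeR's quasi-likelihood test. K562 Control replicate 1 stood apart, with a median distance of 0.395 log2 units from the mean of its group, against 0.0994 to 0.269 in the other 5 K562 libraries. K562 results are therefore also given without it. The fibroblast markers summed to 27367 to 28319 CPM in MEF HSP90i and 23624 to 24742 CPM in MEF Control libraries, and 10 of 10 progenitor markers were at 10 CPM or more in every HPC-7 library. In K562, 10 of 11 rows of erythroid markers were at that level in every library. So were 4 of 5 epithelial markers, which summed to 628 to 697 CPM in K562 HSP90i and 518 to 892 CPM in K562 Control libraries. HSP90AB1, which encodes the constitutive form of the inhibited chaperone, was higher in treated cells of each line (log2 fold changes ± SE of 2.39 ± 0.13 for K562, 1.25 ± 0.05 for MEF and 0.67 ± 0.08 for HPC-7), which describes the response and does not check a label. HSP90AA1, which encodes the inducible form, was higher for K562 (3.20 ± 0.13) and MEF (1.21 ± 0.22) but lower for HPC-7 (-0.62 ± 0.15).

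**Figure D1:**
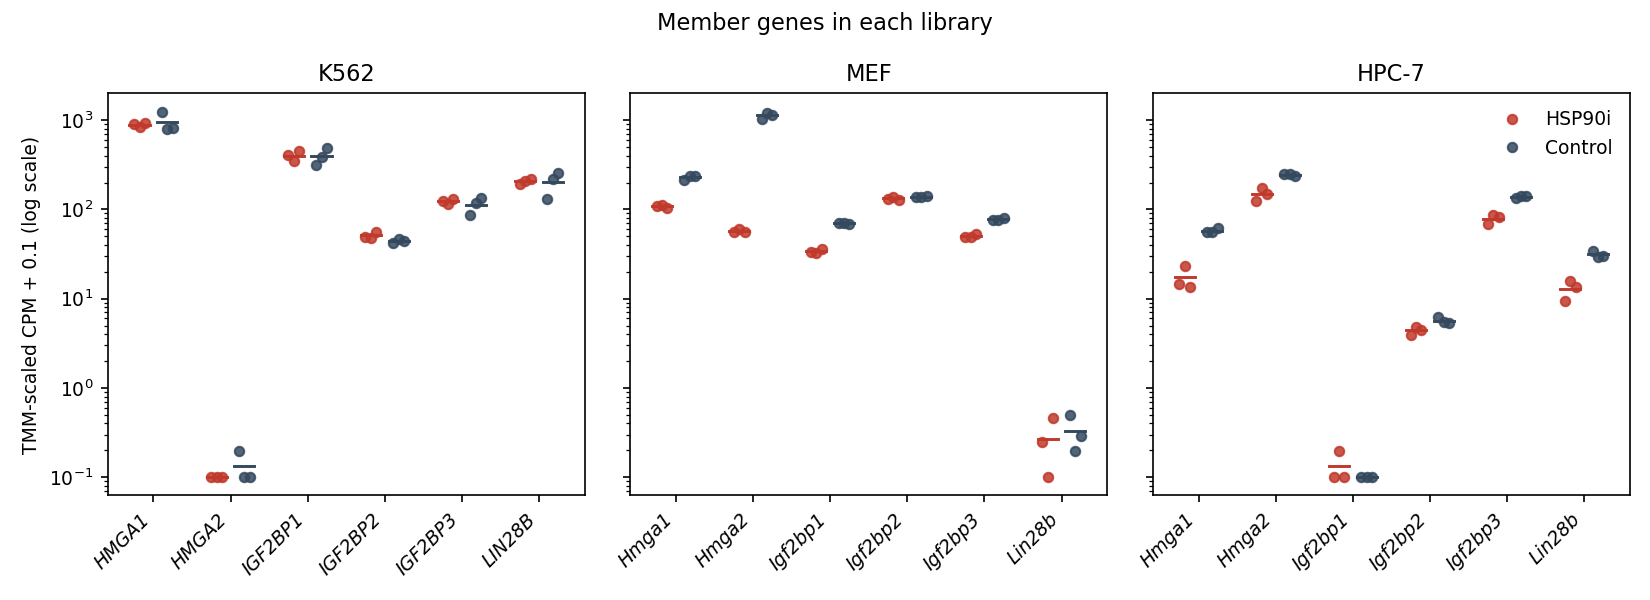
TMM-scaled CPM plus 0.1, on a log axis, of the 6 genes in each library of K562, MEF and HPC-7, with HSP90i to the left of Control. Points are libraries and bars are means of 3. Hmga2 in MEF shows the widest gap, 55.2 to 60.0 CPM in HSP90i against 1035 to 1201 CPM in Control, while the K562 groups lie side by side.

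In MEF, 5 of the 6 genes passed the filter on low counts, and 4 of these 5 were lower in every HSP90i library than in any Control library. Among all 12340 genes tested in MEF, 39.3% showed such a gap downwards, and since the genes were chosen on this contrast nothing is read from the comparison. In HPC-7, 5 of 6 passed and 5 of 5 lay lower without overlap, beside 38.9% of 11703 genes tested. In K562, 5 of 6 passed, 0 of 5 lay lower and 1 of 5 lay higher without overlap, beside 17.8% and 17.4% of 13456 genes tested. The gene that failed the filter differed by line, being Lin28b in MEF, Igf2bp1 in HPC-7 and HMGA2 in K562. These are bulk libraries, in which fewer expressing cells and less RNA per cell cannot be told apart.

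HMGA2, the architectural protein of the fetal growth programme, had the widest range. Hmga2 had 55.2, 60.0 and 55.2 CPM in MEF HSP90i libraries, against 1035, 1201 and 1151 CPM in MEF Control libraries. The means were 56.8 ± 2.78 and 1129 ± 85.2 CPM (SD, n = 3 each), so that treated fibroblasts held 5.03% of the control level. The log2 fold change was -4.31 ± 0.07, the 15th lowest among 12340 genes. Leaving out each library in turn kept it between -4.35 and -4.26.

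Untreated HPC-7 cells held less Hmga2 than untreated fibroblasts, and treated HPC-7 cells kept a larger share of it. Hmga2 had 125, 173 and 148 CPM in HPC-7 HSP90i libraries, against 246, 250 and 234 CPM in Control libraries. Means were 149 ± 24.3 and 243 ± 8.35 CPM (SD, n = 3 each), with a log2 fold change of -0.71 ± 0.11 that put it 2411th from the lowest of 11703 genes. The treated libraries spread more widely than the controls, and none reached them. With levels scaled within each line, the order was MEF Control, HPC-7 Control, HPC-7 HSP90i and MEF HSP90i, with no overlap between neighbours. MEF had more Hmga2 than HPC-7 among control libraries and less among treated ones. K562 had essentially none, with 0, 0 and 0 counts in HSP90i libraries and 1, 0 and 0 in Control libraries.

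HMGA1 encodes the more broadly expressed HMGA protein, common in dividing cells. Hmga1 had 110, 111 and 103 CPM in MEF HSP90i libraries, against 213, 237 and 239 CPM in Control libraries. That made 108 ± 4.07 and 229 ± 14.7 CPM (SD, n = 3 each), a log2 fold change of -1.09 ± 0.06 and 47.1% of the control level. In HPC-7 the HSP90i libraries had 14.6, 23.4 and 13.5 CPM and the Control libraries 55.5, 55.6 and 61.8 CPM. The groups lay far apart although HSP90i replicate 2 was above the other treated libraries. Means were 17.2 ± 5.43 and 57.6 ± 3.65 CPM (SD, n = 3 each), and the log2 fold change of -1.76 ± 0.17 was the lowest of the 6 genes in that line. Leaving out each HPC-7 library moved it between -2.04 and -1.62. Across the mouse groups, with levels scaled within each line, Hmga1 ran from MEF Control through MEF HSP90i and HPC-7 Control to HPC-7 HSP90i, with no overlap.

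HMGA1 was abundant in K562 and its groups overlapped. It had 897, 843 and 937 CPM in HSP90i libraries, against 1241, 802 and 822 CPM in Control libraries. The high value of 1241 CPM came from Control replicate 1. The log2 fold change was -0.10 ± 0.18 with that library and 0.14 without it, so its sign rested on 1 library.

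IGF2BP1 (IMP1, ZBP1 in chicken) is known for carrying beta-actin mRNA. Igf2bp1 had 33.4, 32.8 and 36.0 CPM in MEF HSP90i libraries, against 70.2, 70.5 and 68.4 CPM in Control libraries. The means of 34.1 ± 1.67 and 69.7 ± 1.12 CPM (SD, n = 3 each) gave a log2 fold change of -1.03 ± 0.06, close to that of Hmga1. HPC-7 had 0, 1 and 0 counts in HSP90i libraries and 0 counts in each Control library. Igf2bp1 RNA was thus found in fibroblasts and was at the edge of detection in the precursors. K562 had 408, 348 and 448 CPM in HSP90i libraries, against 317, 390 and 485 CPM in Control libraries. These groups overlapped, with a log2 fold change of 0.02 ± 0.18 that became -0.12 without Control replicate 1.

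IGF2BP2, the family member that stays on in many adult tissues, moved least in MEF. Igf2bp2 had 131, 139 and 127 CPM in MEF HSP90i libraries, against 138, 136 and 142 CPM in Control libraries. The groups overlapped, with means of 132 ± 5.96 and 139 ± 3.14 CPM (SD, n = 3 each) and a log2 fold change of -0.07 ± 0.05. With upper quartile scaling the value was 0.04, so no direction is given. In HPC-7 the HSP90i libraries had 3.85, 4.70 and 4.38 CPM and the Control libraries 6.06, 5.39 and 5.26 CPM. The treated libraries lay below without overlap at this low level (log2 fold change -0.38 ± 0.16). In K562 it was the only gene of the 5 that passed the filter whose groups did not overlap, with 48.7, 47.9 and 56.2 CPM in HSP90i libraries, against 41.9, 47.0 and 44.3 CPM in Control libraries. Its log2 fold change was 0.20 ± 0.13, or 0.15 without Control replicate 1, and the closest libraries of the groups, at 47.9 and 47.0 CPM, nearly met.

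IGF2BP3 (IMP3), the member most restricted to the embryo and to tumours, lay lower in both mouse lines. Igf2bp3 had 49.5, 48.6 and 52.9 CPM in MEF HSP90i libraries, against 75.1, 76.7 and 79.1 CPM in Control libraries. Means were 50.3 ± 2.25 and 77.0 ± 2.05 CPM (SD, n = 3 each), a log2 fold change of -0.61 ± 0.05. HPC-7 had 68.7, 86.0 and 81.7 CPM in HSP90i libraries, against 134, 141 and 141 CPM in Control libraries. There the means were 78.8 ± 9.02 and 139 ± 3.79 CPM (SD, n = 3 each) and the log2 fold change -0.82 ± 0.09. With levels scaled within each line, treated HPC-7 cells overlapped with untreated MEF, while untreated HPC-7 cells stood above and treated MEF below both. Scaled together, the control means were 86.8 CPM in MEF and 122 CPM in HPC-7. Levels of treated libraries on that scale are not given, so the overlap may rest on the scaling. K562 had 123, 115 and 130 CPM in HSP90i libraries, against 85.7, 119 and 134 CPM in Control libraries. Control replicate 1 was again apart, on the low side, and the log2 fold change of 0.12 ± 0.17 was -0.04 without it.

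LIN28B, the let-7 blocker, was a gene of the blood-related lines here. Lin28b had 9.23, 15.7 and 13.5 CPM in HPC-7 HSP90i libraries, against 34.1, 29.5 and 30.3 CPM in Control libraries. Treated cells held 40.9% of the control level, 12.8 ± 3.28 against 31.3 ± 2.46 CPM (SD, n = 3 each), with a log2 fold change of -1.31 ± 0.16 that ranged from -1.49 to -1.12 when each library was left out. MEF had 3, 0 and 4 counts in HSP90i libraries and 9, 1 and 2 counts in Control libraries, too few to test. K562 had 192, 206 and 222 CPM in HSP90i libraries, against 132, 221 and 258 CPM in Control libraries. The treated values lay inside the range of the controls, and the log2 fold change was 0.02 ± 0.22, or -0.21 without Control replicate 1. The paralog LIN28A was near 0 throughout, with 9, 7 and 6 counts in K562 HSP90i libraries and 7, 9 and 6 in K562 Control libraries, at most 4 in any MEF library and 0 in all HPC-7 libraries.

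**Figure D2:**
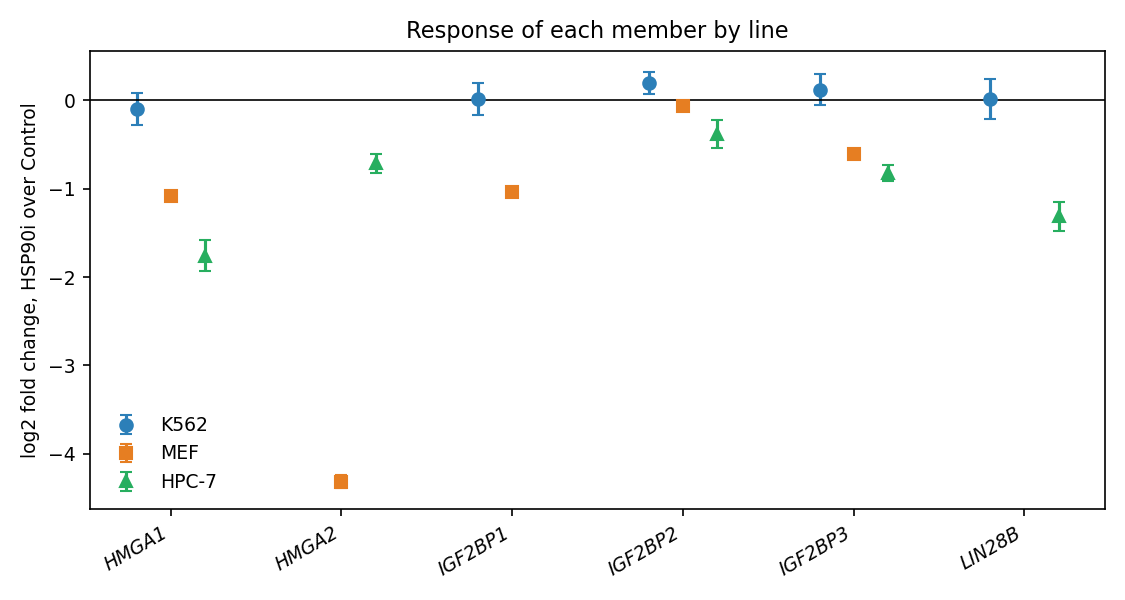
Log2 fold changes of HSP90i over Control with 1 SE either way, for each gene that passed the filter (circles for K562, squares for MEF, triangles for HPC-7). The K562 values lie between -0.10 and 0.20. The MEF values lie between -4.31 and -0.07 and the HPC-7 values between -1.76 and -0.38.

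The order of the genes by fold differed between the mouse lines. In MEF it ran from Hmga2 through Hmga1, Igf2bp1 and Igf2bp3 to Igf2bp2, and in HPC-7 from Hmga1 through Lin28b, Igf2bp3 and Hmga2 to Igf2bp2. Igf2bp2 had the smallest change in both. Neighbours within about 1 SE of each other were Hmga1 and Igf2bp1 in MEF and Igf2bp3 and Hmga2 in HPC-7. The differences in response between lines were not tested, because the genes were chosen on these values.

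**Figure D3:**
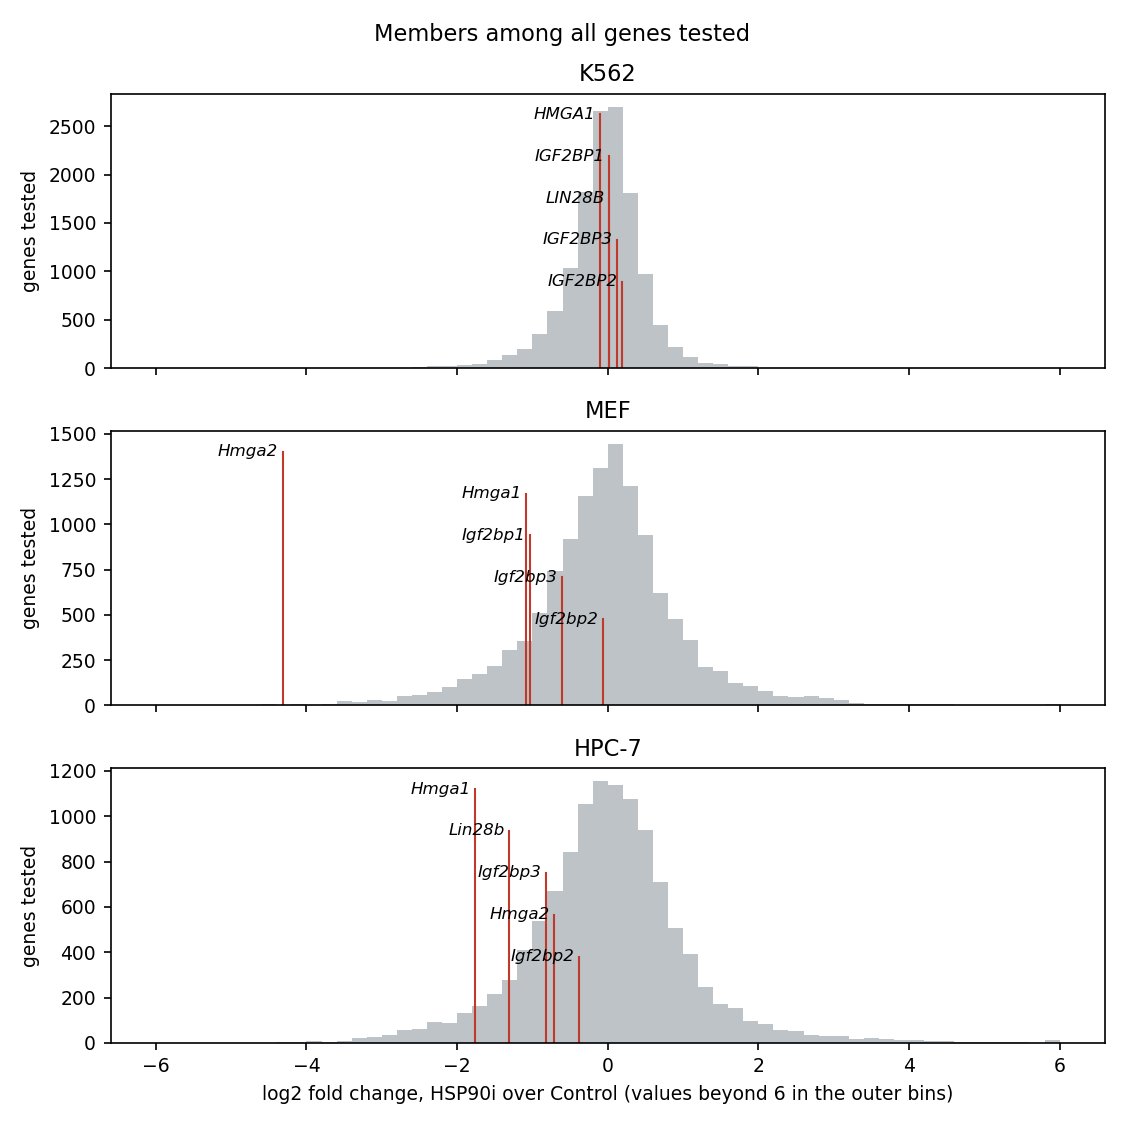
Histograms of the log2 fold change of HSP90i over Control over all genes tested (13456 for K562, 12340 for MEF, 11703 for HPC-7), with red lines at the chosen genes. The K562 lines fall in the middle of the distribution, the line of Hmga2 in MEF falls in its far lower tail at -4.31, and the 5 HPC-7 lines fall between -1.76 and -0.38.

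Untreated MEF and untreated HPC-7 were compared as a question that the choice of genes did not use, although the control libraries are those of the comparisons above. Line, culture and library preparation cannot be told apart in it. Counts of the 6 control libraries were scaled together, so these levels differ from those given above. Igf2bp3, for example, was at 77.0 CPM in MEF and 139 CPM in HPC-7 Control libraries there, and at 86.8 and 122 CPM here. Of 12997 genes tested, 84.7% were called, 45.4% higher and 39.3% lower in MEF. The 4 members with counts well above 0 in both lines were called, 3 higher and 1 lower in MEF, and with most genes called nothing particular is read from that count. Igf2bp1 entered the fit only through its MEF libraries and Lin28b only through its HPC-7 libraries, so these members are described by their levels with no test.

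Hmga2 was at 1272 ± 89.0 CPM in MEF and 214 ± 8.55 CPM in HPC-7 (SD, n = 3 each), a log2 difference of 2.57 ± 0.07 (SE, adjusted p = 7.17e-10, edgeR's quasi-likelihood test). Hmga1 was at 259 ± 15.7 CPM in MEF and 50.7 ± 2.87 CPM in HPC-7, a log2 difference of 2.35 ± 0.07 (adjusted p = 1.51e-09, edgeR). Both HMGA genes were thus higher in the fibroblasts by a similar factor.

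The IGF2BP genes did not follow 1 pattern. Igf2bp2 was at 156 ± 4.29 CPM in MEF and 4.90 ± 0.424 CPM in HPC-7 (log2 difference 4.98 ± 0.07, adjusted p = 3.78e-11, edgeR). Igf2bp1 was at 78.5 ± 1.09 CPM in MEF and had no count in the HPC-7 controls, which puts it at least 302-fold higher in MEF against a floor of 3 counts per library. Igf2bp3 went the other way, at 86.8 ± 2.40 CPM in MEF and 122 ± 2.29 CPM in HPC-7 (log2 difference -0.49 ± 0.05, adjusted p = 8.84e-06, edgeR). Lin28b was at 0.257 ± 0.175 CPM in MEF and 27.6 ± 2.41 CPM in HPC-7 (SD, n = 3 each), and no fold is given since its MEF control libraries held only 9, 1 and 2 counts. Hmga1, Hmga2, Igf2bp2 and Igf2bp3 kept direction and call under each of 13 alternatives, with a largest adjusted p of 0.000210, for Igf2bp3 (edgeR or DESeq2). The size of the Igf2bp3 difference depended on the setting, from -0.87 to -0.45 over these alternatives. With library size alone as the scaling, the median of all genes was -0.30 against 0.08 with TMM, and 39.8% of calls were higher in MEF against 53.6%.

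Genes around the 6 were taken as 8 lists from general knowledge, written with earlier results of these data known, and were tested as non-members in the fit over all genes of each line. They are described by counts and medians, beside a median of all genes of -0.01 in MEF, 0.00 in HPC-7 and -0.02 in K562. The share of all genes called higher and lower was 35.1% and 38.2% in MEF, 36.5% and 36.6% in HPC-7, and 5.11% and 5.97% in K562. Without K562 Control replicate 1 far more of all genes were called, as counted in the last section. List counts from that fit are therefore not to be read against these K562 shares. Up to 4 called genes per list and line, those with the smallest p, are named with their log2 fold change ± SE, and naming a gene in 1 line says nothing of the other lines. Their adjusted p in edgeR ran from 3.57e-09 to 0.000553 in MEF, from 2.95e-07 to 0.000216 in HPC-7 and from 1.27e-05 to 0.0383 in K562. A gene named for 1 mouse line is at times also given for the other, where it can lie outside these ranges. In edgeR this held for Hmgn2 (adjusted p = 0.00503) and E2f1 (0.000825) in MEF and Rrm2 (0.000239) in HPC-7. It also held in MEF for Arid3a (0.0113), Dhx9 (0.0128) and Ybx1 (0.0162), whose MEF values are given among the flagged results. The MEF call of Hmgn2 was lost with upper quartile factors. Grb10, added later, had 0.0188 in HPC-7.

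**Figure D4:**
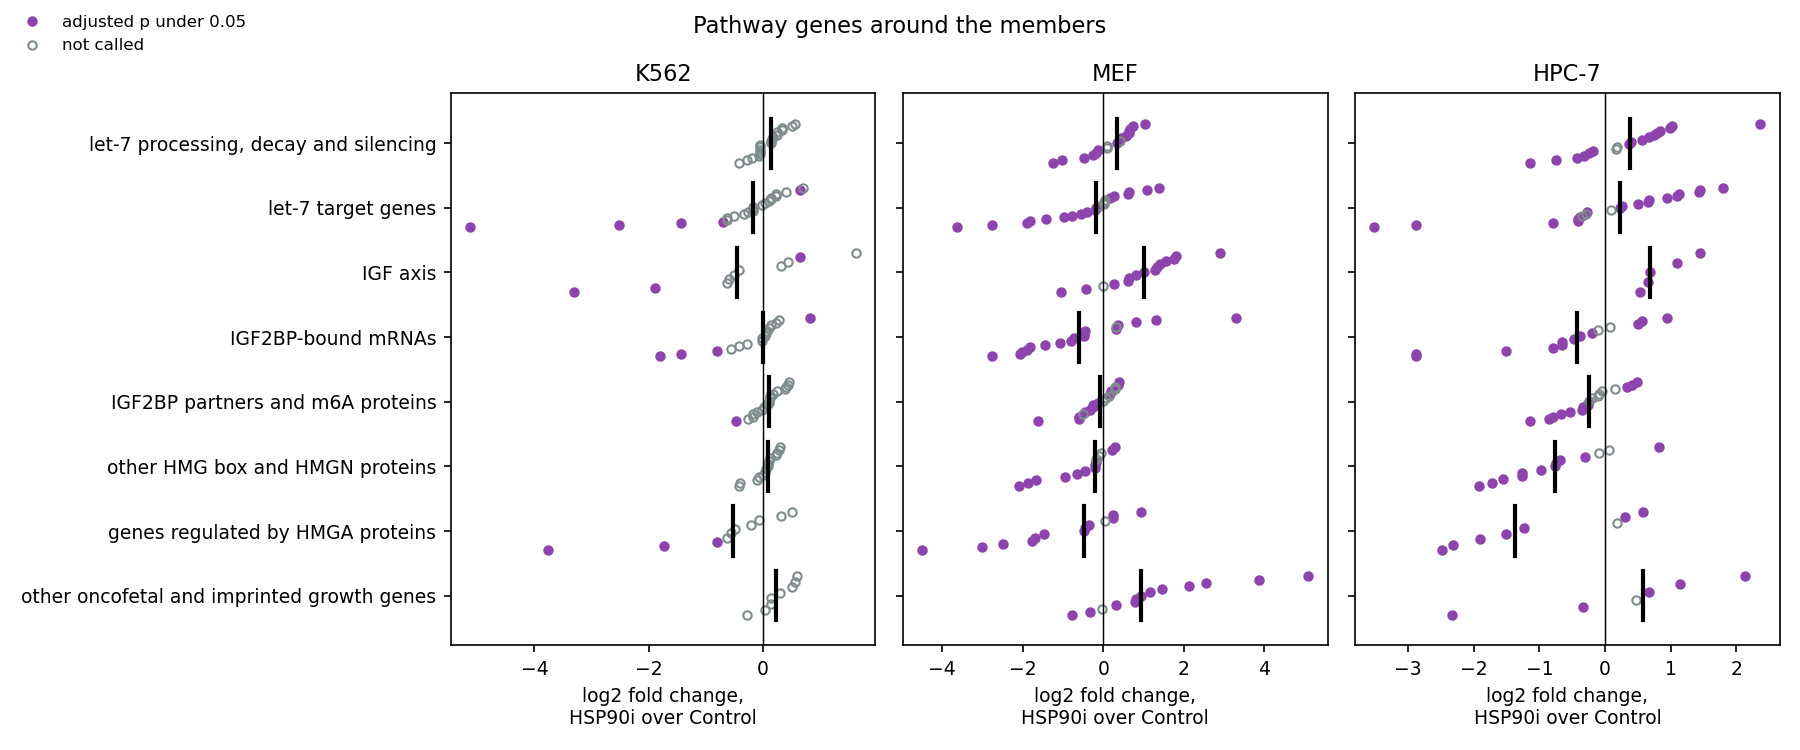
Log2 fold changes of HSP90i over Control for tested genes of 8 lists around the members, in K562, MEF and HPC-7. Each point is a gene, filled where its adjusted p in edgeR was under 0.05, and bars are list medians. The IGF axis has its median above 0 in MEF (1.0) and HPC-7 (0.68), and the list of genes regulated by HMGA proteins has its median below 0 in all 3 panels (-0.49 in MEF, -1.37 in HPC-7 and -0.52 in K562).

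The machinery that makes and uses let-7 had 8 of 17 genes higher and 6 lower in MEF (median 0.33) and 10 of 18 higher and 6 lower in HPC-7 (median 0.38). The microprocessor subunit gene Dgcr8 was lower in both, by -1.02 ± 0.07 in MEF and -1.14 ± 0.11 in HPC-7. In MEF the precursor exporter Xpo5 was also lower (-1.24 ± 0.05), and the silencing genes Tnrc6b (1.03 ± 0.05) and Ago2 (0.64 ± 0.05) were higher. In HPC-7 the Argonaute genes Ago4 (2.37 ± 0.15) and Ago1 (1.02 ± 0.09) were higher, with Zcchc6 (0.997 ± 0.0752), an enzyme that adds uridines to let-7 precursors. K562 had 0 of 19 called by edgeR, 3 at an unadjusted p under 0.05 and 1 by DESeq2, and 5 called by edgeR without Control replicate 1. Mature let-7 was not measured in these libraries, where rows of let-7 hairpins held at most 14 counts.

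Genes repressed by let-7, the group to which HMGA2 belongs, had 6 of 21 higher and 11 lower in MEF (median -0.19) and 11 of 21 higher and 7 lower in HPC-7 (median 0.22). Higher in both was Bach1, a haem-sensing repressor (1.10 ± 0.05 in MEF and 1.79 ± 0.09 in HPC-7). Rrm2, a subunit of ribonucleotide reductase, was lower in both (-3.62 ± 0.08 in MEF and -3.51 ± 0.55 in HPC-7), as was Myc (-2.76 ± 0.07 and -2.89 ± 0.40). HPC-7 HSP90i libraries spread widely for these genes, with Rrm2 at 12.2 ± 14.3 CPM and Myc at 32.9 ± 25.8 CPM (SD, n = 3). MEF had lower Thbs1, a matrix gene (-1.42 ± 0.06). HPC-7 had higher Insr (1.10 ± 0.08), Arid3b (1.43 ± 0.12) and Irs2 (1.45 ± 0.13). The list thus split in both lines rather than moving as 1 group. In K562, 1 of 22 was higher and 4 were lower (median -0.17), or 11 called in all without Control replicate 1. MYC (-1.43 ± 0.15) and the cytokine gene IL6 (0.0333 ± 0.0577 CPM in HSP90i and 1.62 ± 0.362 CPM in Control, SD, n = 3 each) kept their calls when each library was left out. The call of PBX3 (-2.52 ± 0.40) was not kept in edgeR fits that left out HSP90i replicate 1 (adjusted p = 0.0565) or 2 (0.0575). That of TGFBR1 (-0.69 ± 0.15) was lost without Control replicate 2 or HSP90i replicate 1, 2 or 3 (adjusted p = 0.0960, 0.120, 0.0968 and 0.122, edgeR).

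The IGF axis, of ligands, receptors and binding proteins, had 12 of 15 genes higher and 2 lower in MEF (median 1.0). In HPC-7, 5 of 5 were higher (median 0.68). MEF had higher Igf2r, the receptor that clears IGF2, with 538 ± 27.3 CPM in HSP90i and 158 ± 6.0 CPM in Control (SD, n = 3 each, 1.77 ± 0.05). The binding protein genes Igfbp4 (1.81 ± 0.07) and Igfbp2 (1.29 ± 0.05) were higher and Igfbp7 lower (-1.05 ± 0.05). Igf2, the mRNA after which the IGF2BP family is named, was called higher in MEF (0.81 ± 0.09, adjusted p = 3.90e-05, edgeR), and was picked for its name after its value was seen. The HPC-7 genes were Insr and Irs2, as above, with Igfbp4 (0.68 ± 0.09), Igf1r (0.65 ± 0.10) and Grb10 (0.54 ± 0.18). The call of Grb10 was lost without Control replicate 1, Control replicate 3 or HSP90i replicate 2 (adjusted p = 0.0748, 0.0700 and 0.0637, edgeR). K562 had 1 of 10 higher and 2 lower (median -0.46), or 6 called without Control replicate 1. IRS1, an adaptor of the IGF1 receptor, was at 0.643 CPM in HSP90i and 6.55 CPM in Control (-3.30 ± 0.48). IGF1 (-1.89 ± 0.36) was not called in edgeR fits that left out HSP90i replicate 1 (adjusted p = 0.0855) or 2 (0.0892). IRS2 (0.65 ± 0.16) lost its call with library size alone (0.0882) and without Control replicate 2 or HSP90i replicate 1, 2 or 3 (adjusted p = 0.0896, 0.152, 0.142 and 0.124, edgeR).

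Among mRNAs known to be bound by IGF2BP proteins, 5 of 18 were higher and 12 lower in MEF (median -0.60), and 3 of 14 higher and 9 lower in HPC-7 (median -0.43). The hyaluronan receptor gene Cd44 was lower in both (-2.02 ± 0.05 in MEF and -0.66 ± 0.08 in HPC-7), as was the cyclin gene Ccnd1 (-2.06 ± 0.06 and -2.88 ± 0.33). Ccng1, a p53 target, was higher in MEF (1.31 ± 0.09). E2f1 (-0.45 ± 0.08 in MEF and -1.50 ± 0.12 in HPC-7) and the growth factor gene Hdgf (-0.48 ± 0.05 and -0.79 ± 0.07) were lower in both. K562 had 1 of 16 higher and 3 lower (median 0.01), or 7 called without Control replicate 1, with CCND1 at -1.80 ± 0.14. CCNG1 (0.82 ± 0.13) lost its call in the edgeR fit that left out HSP90i replicate 1 (adjusted p = 0.0523). E2F1 (-0.80 ± 0.16) lost its call without Control replicate 2 or HSP90i replicate 1, 2 or 3 (adjusted p = 0.0583, 0.0822, 0.0832 and 0.0963, edgeR).

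Partners of IGF2BP proteins and the m6A writers, readers and erasers had 4 of 18 higher and 8 lower in MEF (median -0.07), and 3 of 18 higher and 9 lower in HPC-7 (median -0.25). The RNA stabiliser gene Elavl1 was lower in both (-0.59 ± 0.06 in MEF and -0.68 ± 0.09 in HPC-7). Syncrip (-1.61 ± 0.14), a partner of IGF2BP1, and the m6A reader Ythdf2 (-0.59 ± 0.07) were lower in MEF, and the demethylase gene Alkbh5 was higher (0.39 ± 0.06). In HPC-7 the partners Ybx1 (-0.79 ± 0.08) and Dhx9 (-0.85 ± 0.12) were lower and Stau1 (0.48 ± 0.07) higher. K562 had 0 of 18 higher and 1 lower, or 4 called without Control replicate 1. This was the methyltransferase gene METTL3 (-0.47 ± 0.12), whose call was lost with no filter on low counts (adjusted p = 0.0928, edgeR) and in 5 of the 6 fits that left out a library (0.0632 to 0.166).

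The other HMG proteins, which share the abbreviation but not the AT-hook, had 2 of 14 higher and 9 lower in MEF (median -0.20), and 1 of 13 higher and 10 lower in HPC-7 (median -0.76). Hmgb2, a DNA-bending protein gene of dividing cells, was at 45.9 ± 3.45 CPM in MEF HSP90i and 196 ± 11.3 CPM in MEF Control (-2.09 ± 0.07). In HPC-7 it was at 229 ± 26.6 CPM in HSP90i and 676 ± 16.8 CPM in Control (SD, n = 3 each, -1.56 ± 0.09). Ssrp1, of the histone chaperone FACT, was also lower in both (-0.64 ± 0.05 in MEF and -1.27 ± 0.09 in HPC-7). So were Ubtf (-1.66 ± 0.05 and -0.76 ± 0.08), Hmgb3 (-1.86 ± 0.11 and -0.68 ± 0.07) and the nucleosome-binding Hmgn2 (-0.20 ± 0.05 and -1.72 ± 0.11), in that order of lines. Hmgn5 was lower in HPC-7 (-1.92 ± 0.14) and was not called in MEF. K562 had 0 of 15 called by edgeR, 2 at an unadjusted p under 0.05, 0 by DESeq2 and 2 by edgeR without Control replicate 1.

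Genes that HMGA proteins are known to regulate had 3 of 13 higher and 9 lower in MEF (median -0.49), and 2 of 8 higher and 5 lower in HPC-7 (median -1.37). The cyclin genes Ccna2 (-3.00 ± 0.09 in MEF and -2.48 ± 0.26 in HPC-7) and Ccnb2 (-1.47 ± 0.06 and -1.24 ± 0.08) were lower in both. So was Brca1 (-0.49 ± 0.07 and -2.31 ± 0.23). Id3 (-4.49 ± 0.07) and Junb (-2.49 ± 0.07) were lower in MEF. K562 had 0 of 10 higher and 3 lower (median -0.52), or 8 called without Control replicate 1, with ID3 (-3.76 ± 0.18) and JUNB (-1.72 ± 0.15) beside E2F1, described above. ID3, JUNB and CCND1 kept their calls when each library was left out.

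Other oncofetal and imprinted growth genes had 10 of 13 higher and 2 lower in MEF (median 0.93), where Hmga2, Hmga1, Igf2bp1 and Igf2bp3 lay lower. The imprinted genes Peg10 (2.56 ± 0.07, 632 ± 50.6 CPM in HSP90i and 107 ± 5.71 CPM in Control), Plagl1 (2.14 ± 0.18), Mest (3.88 ± 0.32) and the cell cycle inhibitor gene Cdkn1c were higher. Cdkn1c was at 2.62 ± 0.489 CPM in HSP90i and 0.0609 ± 0.0529 CPM in Control (SD, n = 3 each), a control level of a few counts. Mest also had a control level near 0, at 3.47 ± 0.623 CPM in HSP90i and 0.248 ± 0.113 CPM in Control. In HPC-7, 3 of 6 were higher and 2 lower (median 0.57), with the oncofetal proteoglycan gene Gpc3 lower (-2.34 ± 0.13) and Plag1 (2.13 ± 0.18), Plagl1 (1.15 ± 0.11) and Arid3a (0.67 ± 0.09) higher. The lower HMGA and IGF2BP genes of MEF stood beside a list that was mostly higher. That list is mixed, with the cell cycle inhibitor gene Cdkn1c among the higher genes, so no contrast of growth genes is read from it. K562 had 0 of 8 called by edgeR, 0 at an unadjusted p under 0.05, 0 by DESeq2 and 1 by edgeR without Control replicate 1.

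Several marker sums did not overlap between treated and control libraries. In HPC-7 the 5 macrophage markers summed to 153 to 190 CPM in HSP90i and 28.0 to 31.6 CPM in Control libraries, with 1 of 5 at 10 CPM or more in every library. The 4 endothelial markers summed to 40.2 to 50.4 CPM in HSP90i and 7.41 to 9.35 CPM in Control libraries, with Tek at 0 in all 6. Cdh5 and Kdr were also at 0 in every Control library, so the Control sums are Pecam1 alone. Only 1 of 4 reached 10 CPM in the HSP90i libraries. Progenitor markers summed to 4747 to 5207 CPM in HSP90i and 3099 to 3126 CPM in Control libraries, and epithelial markers stayed at or under 0.218 CPM. The 6 erythroid markers summed to 1086 to 1288 CPM in HPC-7 HSP90i and 621 to 647 CPM in Control libraries, and the 10 fibroblast markers to 461 to 477 CPM and 529 to 594 CPM. In MEF the 5 epithelial markers summed to 18.8 to 19.7 CPM in HSP90i and 7.0 to 7.61 CPM in Control libraries, and the 5 macrophage markers to 10.2 to 12.9 CPM and 5.94 to 6.91 CPM. MEF progenitor markers summed to 197 to 214 CPM in HSP90i and 228 to 273 CPM in Control libraries, and endothelial markers to 0.929 to 1.25 CPM and 0.474 to 0.836 CPM. In K562 the 10 progenitor markers summed to 735 to 770 CPM in HSP90i and 1021 to 1053 CPM in Control libraries, and the fibroblast markers to 507 to 561.9 CPM and 612 to 811 CPM. The part of these shifts in the values of the 6 genes was not tested.

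As a description, the genes whose levels ran most like each member were sought by Pearson's r of log2(CPM + 1) over the 12 mouse libraries, among 10849 genes with a mean of at least 5 CPM. These points share line, dose and libraries, so r mostly follows the difference between the lines and that between treated and control cells. Hmga2 ran most like the chemokine gene Ccl2 (r = 0.987), Ppp4r1 (0.983) and Iqgap1 (0.981). Hmga1 ran most like the tubulin gene Tubb6 (0.997), Eef1d (0.996) and the ER chaperone gene Hspa5 (0.996). For Igf2bp3 the nearest were Ncbp1 (0.994), Pcna-ps2 (0.990) and Baz1b (0.989), and for Lin28b they were Gm13225 (0.997), Rgs1 (0.996) and Lpar5 (0.996). Igf2bp1 and Igf2bp2, far higher in MEF than in HPC-7, ran most like Sdc4, Loxl1 and Dzip1l for Igf2bp1 and Cdc42bpb, Ablim1 and Cttn for Igf2bp2, each at r of 0.999 or more. Over the 6 K562 libraries and 10611 genes the nearest were TRAPPC1 for HMGA1 (0.994), GGCX for IGF2BP1 (0.998), SIAE for IGF2BP2 (0.989), DLAT for IGF2BP3 (0.999) and RBAK for LIN28B (0.999), with Control replicate 1 among the points.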

How the data were processed

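RNA was sequenced in 3 HSP90i and 3 Control libraries of each line, grouped by sample titles. The deposited tables give raw counts for each gene, unnormalized whole numbers whose totals differ between libraries, and 0 columns of sample values were left unmapped. The submitters' processing notes name TopHat2 2.0.13 and Bowtie2, featureCounts, Picard and Trim Galore, MACS2 and DESeq2, and assign them no roles. The sources used here do not state whether counting used strand or how reads shared by near-identical genes were treated, so levels of such genes are uncertain. Some results are not reported here. Total counts per library set the precision, and p-values and SE include the spread between libraries. The list of K562 HSP90 ChIP peaks was not used here, since no human annotation was at hand, and the planned peak windows were not run.

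Counts were filtered with filterByExpr, scaled with TMM and tested with edgeR 4.0.16 (quasi-likelihood, R 4.3.3, Benjamini-Hochberg adjustment over all genes tested, threshold 0.05), HSP90i over Control in each line and untreated MEF over untreated HPC-7 on the joined counts. Biological coefficients of variation were 0.172 for K562, 0.0835 for MEF, 0.0900 for HPC-7 and 0.0772 for the untreated comparison. No exonic lengths were at hand, so levels are not compared between genes. The members and the 8 lists were chosen with earlier results of these data known. Named genes are the members, up to 4 called genes with the smallest p per list and line (Grb10 and Igf2 were added after their values were seen), and the 3 genes most like each member. Where a symbol had several rows, the row with the most counts was used for a list.

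Other settings tried were each library left out, a block on replicate number, DESeq2 1.42.0, no filter on low counts or a minimum of 1 CPM in 3 libraries, and scaling by upper quartile, by RLE or by library size alone. The fits were also run on simulated counts with 200 genes changed, fewer than were called in any line. Nothing here rests on that run. Of 43626 mouse identifiers, 42462 had a name in the reference table. Figures were drawn with matplotlib 3.10.9.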

Additional observations from a re-analysis of the deposited data

Results flagged for a closer look

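The following genes were picked out because every HSP90i library lay on 1 side of every Control library in a line and on the opposite side in another. They were sought among the members and the pathway genes named above, and other list genes were not searched. The difference between lines was not tested in any of them, and dose and line, and for K562 species, cannot be told apart. Among the members this held for IGF2BP2, at 0.20 in K562 and -0.38 in HPC-7, a gap of 0.58 in log2 fold change. Of all genes tested in K562, 17.8% lay lower and 17.4% lay higher without overlap, while 5.97% and 5.11% were called. Groups that do not overlap in K562 are therefore weak ground for a direction.

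Among the pathway genes, the proliferation-linked CCNA2 was at 0.32 for K562, -3.00 for MEF and -2.48 for HPC-7 (gaps of 3.33 and 2.80). CCNB2 was at 0.52, -1.47 and -1.24 in the same order (gaps of 1.99 and 1.76), and HMGB2 at 0.31, -2.09 and -1.56 (gaps of 2.40 and 1.87). YBX1 was at 0.25, -0.13 and -0.79 (gaps of 0.37 and 1.04). In K562, CCNA2, CCNB2, HMGB2 and YBX1 were not called (adjusted p = 0.156, 0.0581, 0.120 and 0.182, edgeR). The MEF call of Ybx1 (adjusted p = 0.0162, edgeR) was lost with RLE, library size alone, upper quartile factors and DESeq2. It was also lost without Control replicate 1, 2 or 3 or HSP90i replicate 1 or 2.

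In 4 genes of the IGF axis the signs ran the other way, while IRS2 was higher in all 3 lines. INSR was at -0.50 for K562, 0.62 for MEF and 1.10 for HPC-7 (gaps of -1.12 and -1.60), and IGFBP4 at -0.59, 1.81 and 0.68 (gaps of -2.40 and -1.27). Between K562 and MEF, IGF1 was at -1.89 and 1.41 (a gap of -3.29) and IGFBP2 at -0.41 and 1.29 (a gap of -1.70). In K562, INSR, IGFBP4 and IGFBP2 were not called (adjusted p = 0.118, 0.0932 and 0.118, edgeR). The K562 call of IGF1 was not kept in every fit, as described above. ARID3A was at 0.15 for K562, -0.78 for MEF and 0.67 for HPC-7, gaps of 0.94 between K562 and MEF and -1.46 between MEF and HPC-7. It was not called in K562 (adjusted p = 0.466, edgeR). Between the mouse lines, DHX9 was at 0.19 in MEF and -0.85 in HPC-7 (a gap of 1.04), GPC3 at 0.93 and -2.34 (a gap of 3.27), and GRB10 at -0.42 and 0.54 (a gap of -0.96).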

How the results depend on the processing

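Each of 13 alternatives kept the sign of every tested member in HPC-7, of the 4 lower members in MEF and of IGF2BP2 in K562, and 4 of 4 calls between untreated MEF and HPC-7. In K562, HMGA1 kept its sign in 12, IGF2BP3 in 12, IGF2BP1 in 9 and LIN28B in 9 of 13. With library size alone, IGF2BP2 in K562 was 0.0893. With upper quartile factors, Hmga1, Hmga2, Igf2bp1, Igf2bp2 and Igf2bp3 in MEF were -0.98, -4.21, -0.93, 0.0373 and -0.51. Leaving out each MEF library gave -0.10 to -0.0107 for Igf2bp2 and -0.65 to -0.56 for Igf2bp3, with the value nearest 0 without Control replicate 3 for both.

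Counts of called genes stayed within 1.5 times in MEF, HPC-7 and the untreated comparison. In K562, 1491 genes were called, and leaving out each library gave 348 to 3917: 3917 without Control replicate 1, 569 without Control replicate 2, 1670 without Control replicate 3, and 356, 348 and 418 without HSP90i replicate 1, 2 and 3. Of K562 calls 46.1% were higher, against 26.7% with library size alone (median of all genes -0.13) and 35.3% with upper quartile factors. Of 16 list counts per line, 15 for K562, 2 for MEF and 1 for HPC-7 moved by over 1.5 times under some alternative. List counts were not taken with upper quartile factors, with no filter on low counts or with the minimum of 1 CPM in 3 libraries.

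Same-numbered libraries did not deviate together in every pair (r across genes 0.32, 0.05 and 0.50 in K562, 0.34, -0.31 and -0.32 in MEF, -0.07, 0.01 and -0.15 in HPC-7, and 0.16, 0.06 and 0.21 in the untreated comparison). In K562, HSP90i replicate 1 against Control replicate 3 had r of -0.32, and HSP90i replicate 3 against Control replicate 1 had -0.42. In MEF, HSP90i replicate 1 had -0.01 and -0.22 against Control replicates 2 and 3. HSP90i replicate 2 had -0.40 and 0.48 against Control replicates 1 and 3, and HSP90i replicate 3 had 0.13 and 0.33 against 1 and 2. With 3 libraries per group these values cannot settle whether libraries were paired, and the main fits used no pairing. With the replicate block, edgeR called 1810 genes for K562, 8796 for MEF, 8129 for HPC-7 and 11005 in the untreated comparison. The peak alternatives were not run. Depth limits HMGA2 in K562, Lin28b in MEF and Igf2bp1 in HPC-7, where counts near 0 allow no fold.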
